A study of Mus musculus with 2 samples.

Results

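Ribosome biogenesis and nucleolar genes were examined as a set of 42 named genes, chosen by symbol: every probe set, other than the array's controls, that the platform annotation assigns to 1 of these symbols alone was taken. All 42 genes were found, on 86 probe sets, among 18193 genes on the array. RNA came from whole mouse lungs at embryonic day 18. The wildtype group holds 1 array, and the group homozygous for nmyc9a, a hypomorphic allele of Mycn, holds 1 array. Each array was made from pooled lungs, so a pool hides the spread between animals, and neither the number of lungs per pool, the strain nor the sex is given in the sources used here. With 1 array in each group, no difference below has a replicate check, no test was possible, and no p-value is given.

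Ribosomes are built in the nucleolus. RNA polymerase I transcribes one long precursor of the ribosomal RNAs, small nucleolar ribonucleoproteins (snoRNPs) guide its chemical modification, the small subunit processome folds and cleaves the part that becomes the small subunit, and a separate set of GTPases, helicases and scaffold proteins assembles the large subunit. Many of these genes are known as targets of the Myc family of transcription factors, to which N-Myc, the product of Mycn, belongs. In the developing lung N-Myc is required in the distal epithelium for growth of the airway tree. The comparison describes how the transcripts of each step stood in lungs labelled with reduced Mycn function shortly before birth.

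Signals are linear intensities of a probe set, in arbitrary units, after the array labelled Nmyc9a was scaled to the wildtype array. In each pair of signals the wildtype value comes first. A gene is represented by its brightest probe set unless stated, and it counts as measured when its mean signal over the arrays reached a floor of 49.3, the 40th percentile of all signals. Ratios are log2 of the Nmyc9a over the wildtype signal, with values under the floor raised to it. The median log2 ratio of all 12600 measured genes was -0.09, and values near that are the centre of the arrays. The SD between probe sets of 1 gene was 0.40 on the log2 scale (1.32-fold) over 5671 genes and 0.32 over the 26 ribosome biogenesis genes with several measured probe sets. That SD covers probe behaviour only. In bulk RNA, fewer cells of a type and less RNA per cell cannot be told apart.

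The array labels could be checked only in part. Lung identity was clear on both arrays: Sftpc, the surfactant protein of type 2 alveolar cells, read 8639 and 8966, and Tcf21, a transcription factor of lung mesenchyme, read 4181 and 4030. Mycn itself read 66.3 and 84.8 on its brightest probe set, 51.1 and 85.4 on the second and 19.7 and 33.9, below the floor, on its remaining one. Mycn was therefore not lower on the array labelled Nmyc9a, and the sources used here do not place its probes with respect to the allele, so this does not check the label. Bacterial spike-in controls, 18 measured probe sets, stood between 0.05 and 0.53 (median 0.17). Among control probe sets for mouse transcripts, those of actin stood between 0.09 and 0.12, those of Gapdh between -0.43 and -0.26 and those of pyruvate carboxylase between 0.23 and 0.66. The Gapdh controls were thus as low as many of the ribosome biogenesis genes described below.

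Of the 42 ribosome biogenesis genes, 38 were measured, and as a group they lay lower on the array labelled Nmyc9a. Their median log2 ratio was -0.39, which is 0.30 below the median of all measured genes. Of the 38, 28 (73.7%) had a ratio below 0, against 58.7% of all measured genes. At 1.5-fold, 6 were lower (15.8%), against 9.7% of all measured genes, and none was higher, against 6.33%. The 6 were Tsr1, Nhp2, Nop10, Pes1, Nolc1 and Gnl3, and none reached 2-fold, against 1.38% of all measured genes lower and 1.29% higher by that much. Centred on the median of all measured genes instead, 5 of the 38 were 1.5-fold lower, against 6.56% of all measured genes, and 1 was higher, against 8.87%. Gnl3 stood just past the 1.5-fold limit at -0.65, and Nop58 and Dkc1 stood just short of it, both at -0.57. With no floor, all 42 genes gave the same median, with 8 genes 1.5-fold lower, against 13.6% of all 18193 genes, and 1 higher, against 13.5%.

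**Figure D1:**
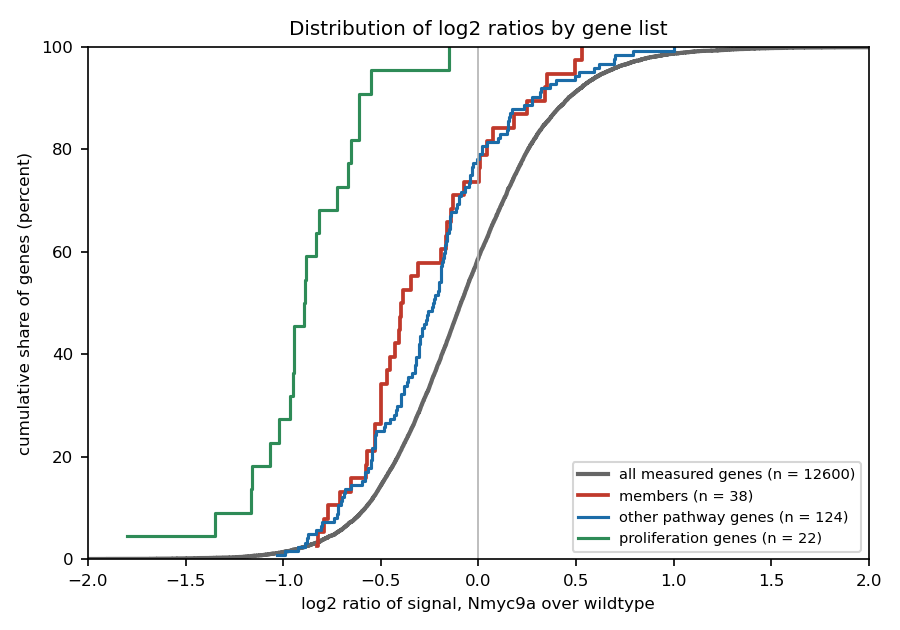
Cumulative share of genes (percent, vertical axis) against the log2 ratio of signal of Nmyc9a over wildtype (horizontal axis, 1 array each) for all 12600 measured genes, the 38 measured ribosome biogenesis genes, 124 other genes of the pathway and 22 proliferation genes. The curve of the ribosome biogenesis genes runs to the left of all genes in the middle of its range (median -0.39 against -0.09), and the proliferation curve lies further left (median -0.89).

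The 4 genes that were not measured are Rrp9, Rrp12, Wdr12 and Ppan. Rrp9, a protein of the U3 snoRNP, read 16.4 and 18.5, and Rrp12, which acts in small subunit export, read 4.6 and 1.66. Wdr12, a subunit of the PeBoW complex, read 45.5 and 43.8, and Ppan, a large subunit factor, read 51.8 and 29.4. These signals say only that their probe sets were dim, and no ratio is given for them.

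**Figure D2:**
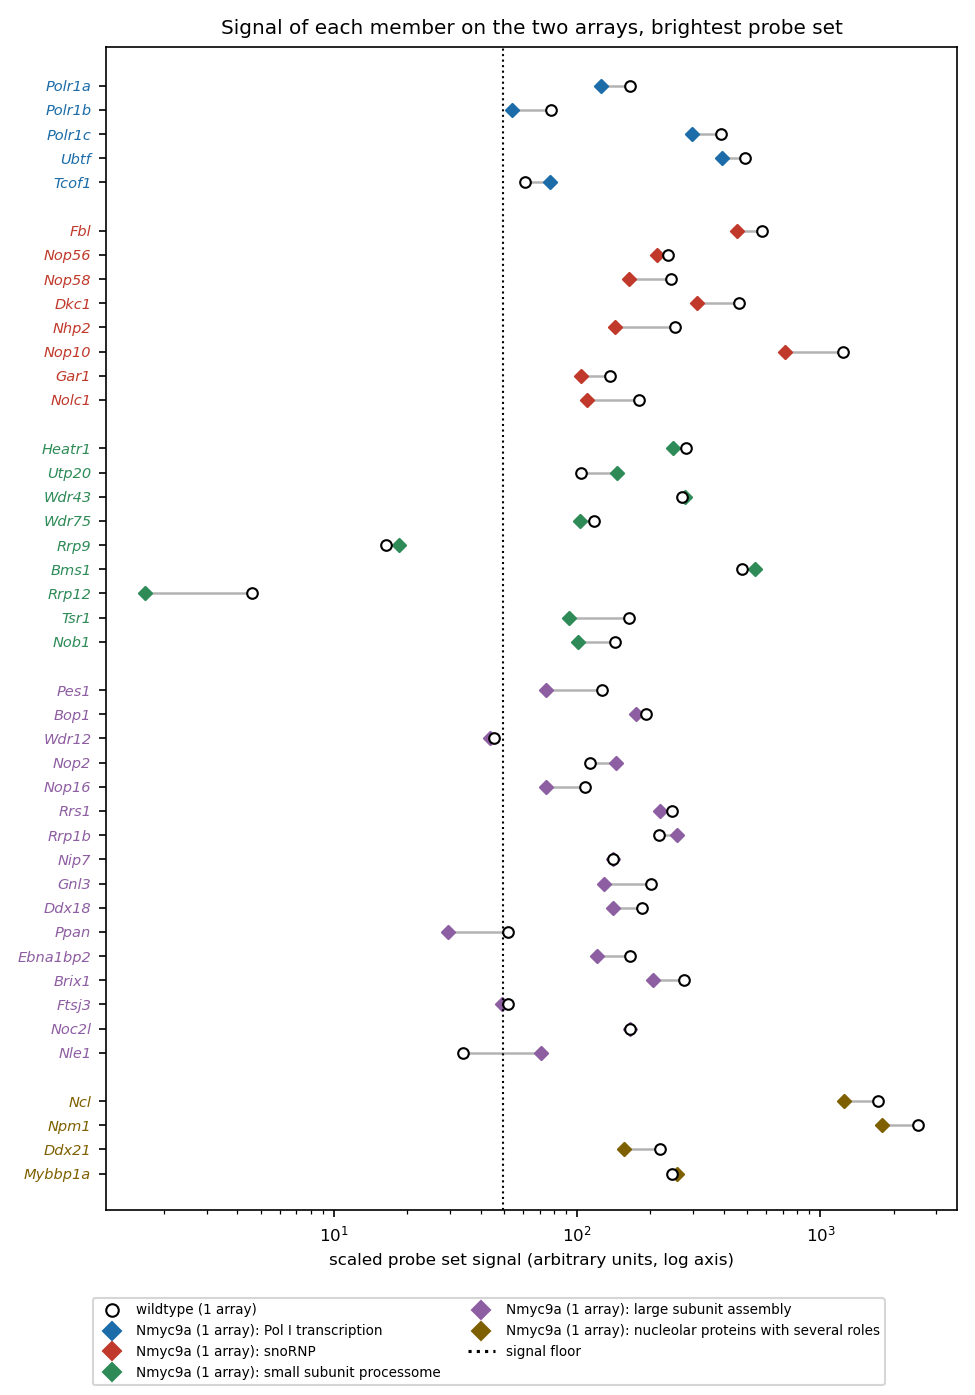
Signal of the brightest probe set of each of the 42 genes on the wildtype array (open circles) and on the Nmyc9a array (diamonds, coloured by step), on a log axis in arbitrary units, with the signal floor of 49.3 as a dotted line. Every snoRNP diamond lies to the left of its circle, while Utp20, Nop2, Rrp1b and Bms1 lie to the right.

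RNA polymerase I genes lay lower on the array labelled Nmyc9a by amounts short of 1.5-fold. Polr1a, the largest catalytic subunit, read 165 and 125, a log2 ratio of -0.41, and its second measured probe set stood at -0.35. Polr1b, the second-largest subunit, read 77.9 and 54.0 (-0.53). Polr1c, a subunit shared with RNA polymerase III, read 391 and 296 (-0.40), and its other probe set stood at -0.43. Polr1a, Polr1b and Polr1c thus stood between -0.53 and -0.40. Measured polymerase subunits outside the 42 genes spread more widely, from -0.72 to 0.40 or higher. Ubtf, the architectural factor that keeps ribosomal DNA open for transcription, read 489 and 394 (-0.31), with its other probe set at -0.12. Tcof1, treacle, a nucleolar phosphoprotein that aids ribosomal DNA transcription, had 3 measured probe sets that disagreed. The brightest read 60.7 and 76.9 (0.34), the next stood at -0.12 and the last at -0.44, all with signals near the floor. The median of the step was -0.40 over 5 genes.

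Genes of the snoRNPs lay lowest of the steps, and all 8 had ratios below 0, with a median of -0.57 and 3 genes 1.5-fold lower (37.5%, against 9.7% of all measured genes). Each of the 6 genes with several measured probe sets had all of them below 0, a count for which no share over all genes was taken. snoRNPs come as box C/D particles, which add methyl groups to ribosomal RNA, and as box H/ACA particles, which convert uridine to pseudouridine and share their core proteins with telomerase. The core proteins of the H/ACA particle stood at a median of -0.68 over 4 genes, and those of the C/D particle at -0.34 over 3 genes. The difference between the kinds was not tested.

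Nhp2, an H/ACA core protein, read 252 and 142, which is 1.77-fold lower (-0.82). Its second probe set read 205 and 105 (-0.97). Nop10, the smallest H/ACA core protein, read 1236 and 715, which is 1.73-fold lower (-0.79), and its second probe set read 965 and 627 (-0.62). For both genes, each probe set was lower by more than the SD between probe sets, which does not cover the spread between pools or arrays. Dkc1, dyskerin, the pseudouridine synthase of the particle, read 461 and 310.2 (-0.57). Its other probe sets read 217 and 101 (-1.10) and 173 and 123 (-0.49), so 1 of its 3 probe sets was over 2-fold lower. Gar1, the fourth core protein, read 137 and 104 (-0.40) on its single probe set.

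Among box C/D proteins, Fbl, fibrillarin, the methyltransferase itself, read 574 and 452 (-0.34), with -0.20 on its other probe set. Nop58, one of the paired scaffold proteins, read 244 and 164 (-0.57) on 1 probe set. Nop56, the other scaffold protein, read 235 and 214 (-0.14) on its brightest probe set but 170.1 and 110.04 (-0.63) on the second. The size of the difference of Nop56 thus rests on the choice of probe set, as it does for Dkc1, though the sign is the same on all sets of each. Nolc1, also known as Nopp140, a phosphoprotein that escorts snoRNPs through the nucleolus, read 179.5 and 109.9, which is 1.63-fold lower (-0.71). Its second measured probe set stood at -0.35, and its remaining one was below the floor on both arrays.

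The promoters of Nhp2 and Nop10, the lowest of the snoRNP genes, are shown because the canonical E-box, the Myc binding word CACGTG, was searched for in them and not found. The sequences are from RefSeq on GRCm38.p6, from 250 bases before to 50 bases after the start of transcription, on the strand of the gene. Capitals mark the variant word CACGCG or its reverse complement CGCGTG, found once in each.
Nhp2, chr11:51619523-51619822, plus strand: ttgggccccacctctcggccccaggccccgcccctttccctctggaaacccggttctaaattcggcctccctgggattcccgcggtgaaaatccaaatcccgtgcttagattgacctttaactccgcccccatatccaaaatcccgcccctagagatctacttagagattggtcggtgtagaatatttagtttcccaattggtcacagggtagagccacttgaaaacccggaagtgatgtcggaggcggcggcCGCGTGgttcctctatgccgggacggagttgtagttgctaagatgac
Nop10, chr2:112261676-112261975, plus strand: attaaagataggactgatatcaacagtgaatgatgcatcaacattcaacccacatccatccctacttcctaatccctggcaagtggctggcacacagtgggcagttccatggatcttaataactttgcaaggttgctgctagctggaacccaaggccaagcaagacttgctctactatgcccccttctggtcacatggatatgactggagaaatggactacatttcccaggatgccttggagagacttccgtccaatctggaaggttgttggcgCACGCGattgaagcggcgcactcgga

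Small subunit genes went both ways, with a median of -0.17 over 7 measured genes, close to all genes. At 1.5-fold, 1 gene was lower, 14.3% against 9.7% of all measured genes. Tsr1, a factor of late small subunit precursors, read 164 and 92.3, which is 1.77-fold lower (-0.83), but its second probe set read 72.8 and 61.8 (-0.24). Nob1, the endonuclease that makes the final cut at the end of the small subunit RNA, read 143 and 101 (-0.50). Both of these act late, on the particle that leaves the nucleolus. Late and early factors were not compared, and lower genes of the wider list, given below, include processome proteins. Of the early-acting proteins, Heatr1, a large scaffold of the UTP-A complex, read 279 and 249 (-0.17) on its brightest probe set, while its other probe sets read 130.1 and 218 (0.74) and 52.6 and 76.1 (0.53). Its direction therefore depends on the probe set. Utp20, another large scaffold protein, read 103 and 145 (0.49) on 1 probe set.

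Wdr43 and Wdr75, propeller proteins of the UTP-A complex, stayed near 0: Wdr43 read 269 and 278 (0.05) with -0.19 on its other probe set, and Wdr75 read 117 and 102 (-0.19) with 0.20 on its other probe set. Bms1, the GTPase of the processome, read 476 and 540 (0.18) on its brightest probe set but 163 and 101 (-0.69) on the other. The brightest set of Bms1 is an s set, a name the maker gives to sets that match several transcripts. Both sets of Tsr1, the brightest sets of Nhp2 and Tcof1 and the only set of Gar1 are s sets too. Of the 5 small subunit genes with several measured probe sets, 4 had probe sets of both signs, against none of the 6 snoRNP genes. That contrast is a description of these probe sets, was not tested and has no share over all genes beside it.

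**Figure D3:**
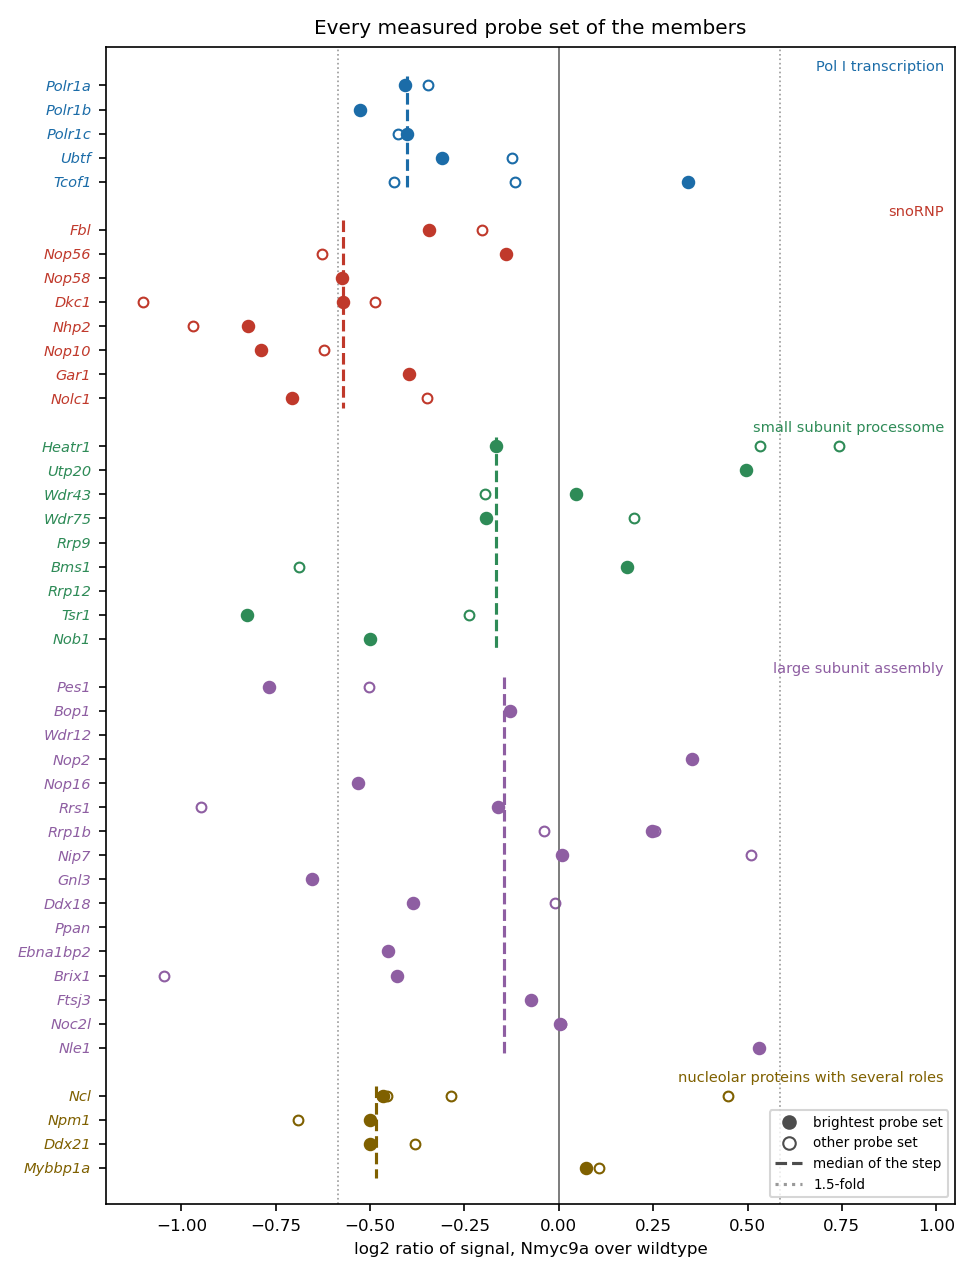
Log2 ratio of signal of Nmyc9a over wildtype (horizontal axis) for each of the 71 measured probe sets, by gene and step; filled points are the brightest probe set of a gene, open points its others, dashed lines the median of the step and dotted lines 1.5-fold. All snoRNP points lie below 0, and points of Heatr1, Bms1 and Tcof1 lie on both sides of it.

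Large subunit genes had a median of -0.15 over 14 measured genes, with 2 genes 1.5-fold lower, 14.3% against 9.7% of all measured genes. Pes1, pescadillo, a scaffold of the PeBoW complex that is needed to process the large subunit RNA, read 127 and 74.4, which is 1.70-fold lower (-0.77), and 73.8 and 52.1 (-0.50) on its second probe set. Its partner Bop1 read 191 and 175 (-0.13). Gnl3, nucleostemin, a nucleolar GTPase abundant in dividing cells, read 202 and 128, which is 1.57-fold lower (-0.65), on 1 probe set. Nop16 read 107 and 74.2 (-0.53), and Ebna1bp2, a scaffold protein of early particles, read 164.5 and 120.3 (-0.45).

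Some large subunit genes had probe sets of the same sign but of unequal size. Brix1, a protein of early large subunit particles, read 275 and 204 (-0.43) on its brightest probe set and 113 and 54.5 (-1.05) on the other. Rrs1, which helps bring the 5S RNA particle into the large subunit, read 246 and 219.9 (-0.16) on its brightest probe set, an x set that may bind other transcripts, and 175 and 90.8 (-0.95) on the other. Ddx18, an RNA helicase, stood at -0.39 and -0.01. These genes were near or past 2-fold lower on 1 probe set and under 1.5-fold on another, or short of 1.5-fold on both.

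The remaining large subunit genes stood near or above 0. Nop2, a methyltransferase of the large subunit RNA, read 113 and 144 (0.35). Rrp1b read 218 and 258 (0.25), with 0.26 and -0.04 on its other probe sets. Nip7 read 139.8 and 140.7 (0.01), with 0.51 on a dimmer probe set, and Noc2l, the counterpart of a yeast factor of large subunit export, read 165 and 165 (0.00), with 0.01 on the other. Ftsj3, also a methyltransferase, read 51.9 and 49.0, at the floor. Nle1, a factor released from large subunit precursors in yeast, read 33.9 and 71.2, so that its ratio of 0.53 is a lower bound. It passed the filter only through the Nmyc9a array.

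Abundant nucleolar proteins with roles in several steps were lower by similar amounts under the reported processing, with 1 exception. None passed 1.5-fold on its brightest probe set. Ncl, nucleolin, which binds nascent ribosomal RNA, read 1726 and 1249 (-0.47) on its brightest probe set. Other probe sets read 990.4 and 716 (-0.47), 127 and 92.5 (-0.45) and 144 and 118 (-0.29), while the remaining one, an x set, read 101 and 137 (0.45). Npm1, nucleophosmin, a histone and ribosomal protein chaperone of the outer nucleolus, read 2527 and 1785 (-0.50), and its other probe set read 1886 and 1168 (-0.69). Ddx21, an RNA helicase that works with RNA polymerase I, read 219.7 and 155 (-0.50) with -0.38 on its other probe set. After quantile normalization the sizes were less alike, with Ncl at -0.22, Npm1 at -0.26 and Ddx21 at -0.56. The median of all measured genes was then -0.10. The exception was Mybbp1a, a nucleolar protein that binds Myb and RNA polymerase I, which read 244.5 and 257 (0.07) with 0.11 on its other probe set.

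Over all steps, 53 of the 71 measured probe sets stood below 0, against 54.8% of all measured probe sets with 1 gene. Of these 71, 14 were 1.5-fold lower, against 9.24% of all measured probe sets with 1 gene, and 1 was 1.5-fold higher, the Heatr1 set named above, against 9.32%. Of the 26 genes with several measured probe sets, 16 had all of them below 0 and 7 had both signs. The 3 with none below 0 were Nip7, Noc2l and Mybbp1a. Shares of this kind were not taken over the 5671 such genes of the array, so these counts have no background beside them. Probe sets of 1 gene share the RNA and the array, and they are not replicates.

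**Figure D4:**
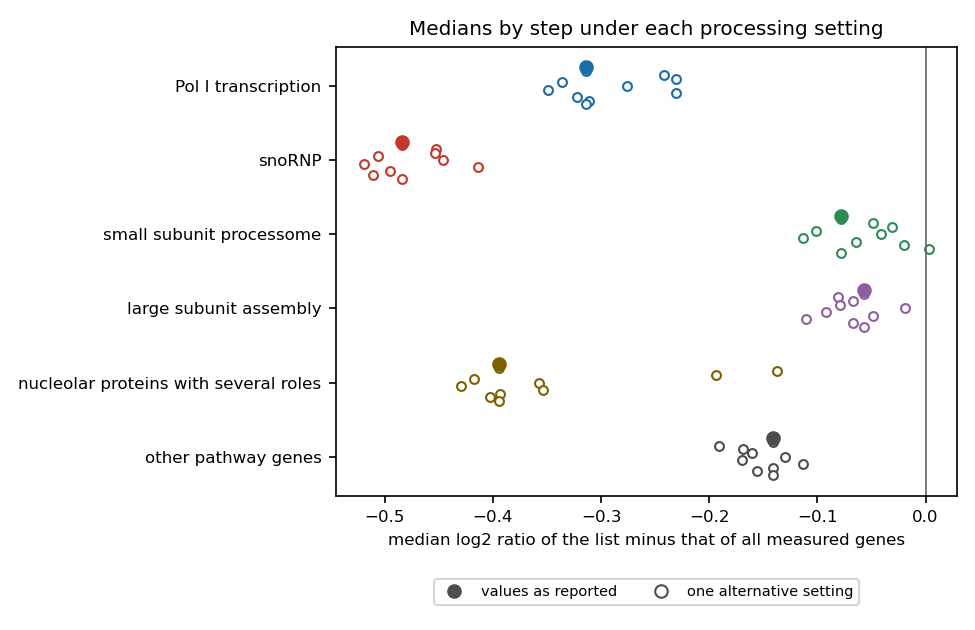
Median log2 ratio of each step minus the median of all measured genes (horizontal axis) under the reported processing (filled points) and each of 10 alternative settings (open points). The snoRNP points lie between -0.52 and -0.41 and those of the small and large subunit steps between -0.11 and 0.00.

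The snoRNP median was the lowest of the steps in all 11 settings tried. Relative to all measured genes, the snoRNP median lay between -0.52 and -0.41 over these settings, the RNA polymerase I median between -0.35 and -0.23, and the small and large subunit medians between -0.11 and 0.00. The median of the nucleolar proteins with several roles moved more, between -0.43 and -0.14, over 4 genes. Differences between steps were not tested.

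Promoter windows were available in RefSeq for 36 of the 42 genes. The canonical E-box CACGTG, which reads the same on both strands, was present in the window of 7 genes (19.4%). It was present for 8.09% of all genes with a window and 11.2% of the measured genes with a window. Counted by window and not by gene, it was in 7.15% of all 32851 promoter windows of the same length. The 7 genes are shown with 30 bases on each side of the word, or up to the end of the window, on the strand of the gene and on GRCm38.p6, because they lie mostly at the higher end of the group. Capitals mark the E-box. Position 1 is the first transcribed base, and positions before it are negative.
Nop2, chr6:125131793-125131858, plus strand, E-box from position -60: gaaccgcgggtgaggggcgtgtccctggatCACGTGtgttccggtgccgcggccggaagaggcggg
Utp20, chr10:88826765-88826807, minus strand, E-box from position 38: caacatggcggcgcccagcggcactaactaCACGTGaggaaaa
Pes1, chr11:3963947-3964012, plus strand, E-box from position 3: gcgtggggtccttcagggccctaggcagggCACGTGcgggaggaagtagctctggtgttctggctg
Mybbp1a, chr11:72441337-72441376, plus strand, E-box from position 41: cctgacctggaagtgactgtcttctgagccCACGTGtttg
Tsr1, chr11:74898074-74898129, plus strand, E-box from position 25: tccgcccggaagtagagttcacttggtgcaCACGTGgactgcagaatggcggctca
Nle1, chr11:82908346-82908402, minus strand, E-box from position 24: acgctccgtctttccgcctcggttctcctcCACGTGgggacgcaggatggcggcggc
Wdr43, chr17:71616202-71616264, plus strand, E-box from position 18: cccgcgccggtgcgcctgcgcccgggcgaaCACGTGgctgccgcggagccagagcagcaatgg

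Of these 7 genes, 5 had ratios above 0 and 2, Tsr1 and Pes1, were 1.5-fold lower. Of the 5, Nle1 passed the filter only through the Nmyc9a array, so its sign was set by the filter. Wdr43 stood at 0.05, with -0.19 on its other probe set. The median of the 7, with Nle1 at its bound, was 0.07 (0.03 to 0.23 over the alternative settings). Over the 26 measured genes whose window lacks the word it was -0.42 (-0.48 to -0.32), and 22 of them stood below 0. The difference was not tested. No snoRNP window held the word, of 7 available, which are too few to set against the 11.2% of measured genes with a window. Over all measured genes the medians with and without the word were -0.11 and -0.09. The variant CACGCG, searched on both strands, was found in the windows of 12 genes (33.3%). The share was 10.5% of all genes with a window, 18.9% of measured genes with a window and 9.27% of all windows. In 2 genes, Pes1 and Mybbp1a, the windows hold both words. Copies of CACGTG and of the variant cannot share letters, while CACGCG and CGCGTG can overlap each other. Holders of the variant had a median of -0.50 over 11 measured genes, against -0.39 over the 22 without it, and over all measured genes the medians were -0.11 and -0.08. A match is a word in a window and not a binding site, and a window without it says nothing of sites elsewhere in the gene.

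**Figure D5:**
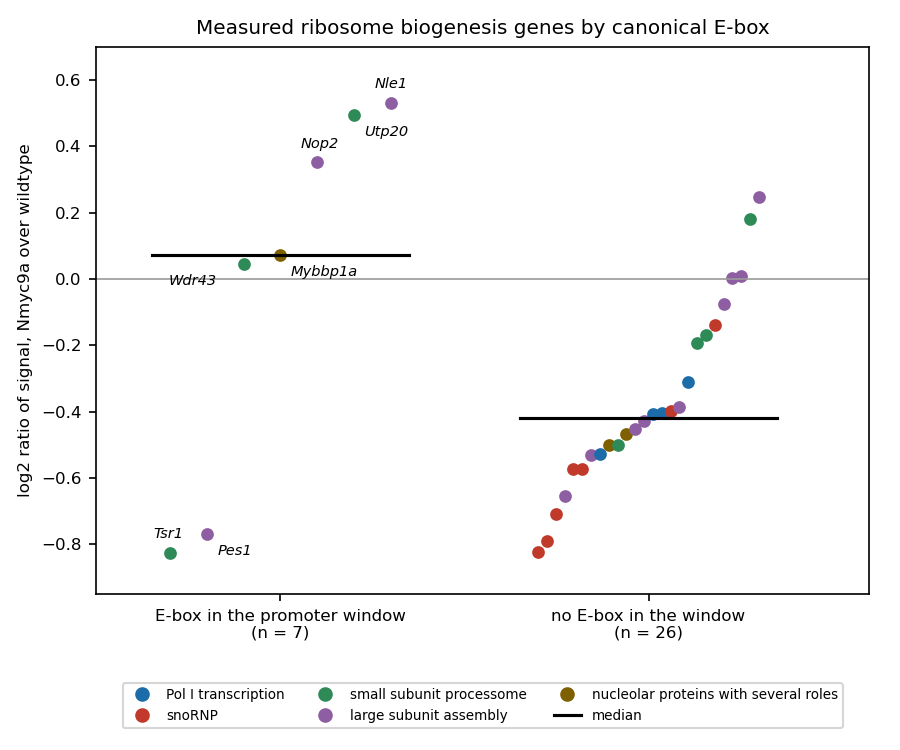
Log2 ratio of signal of Nmyc9a over wildtype (vertical axis) for the 7 measured genes with a canonical E-box in the promoter window and the 26 without, coloured by step, with the median of each as a black line. The E-box genes split into 5 above 0 and 2 near -0.8, and their median is 0.07 against -0.42. The 5 include Nle1, which passed the filter only through the Nmyc9a array.

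Other genes of ribosome assembly, 133 from a list of factors for the same steps and for trimming of the precursor RNA, lay lower by less. Of 124 measured, 19 were 1.5-fold lower (15.3%, against 9.7% of all measured genes) and 6 were higher (4.84%, against 6.33%), with a median of -0.23. Of the rest, 6 were dim and 3 were not named by a probe set of their own. The share below 0 was 78.2%. By step, the median was -0.21 for 9 RNA polymerase I genes, -0.36 for 8 snoRNP assembly genes, -0.29 for 47 small subunit genes, -0.19 for 47 large subunit genes and -0.15 for 13 exonuclease genes.

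Of 9 measured RNA polymerase I genes outside the 42, 2 were 1.5-fold lower and 1 higher, against 9.7% and 6.33% of all measured genes. Polr1d, shared with RNA polymerase III, read 1227 and 746 on an x set. This is 1.65-fold lower, with all 4 probe sets below 0. Polr1h, listed on the array as Znrd1, read 392.5 and 244, which is 1.61-fold lower. Taf1d, of the selectivity factor that brings the polymerase to its promoter, was 1.51-fold higher, with 2 of 4 probe sets below 0. Of 8 measured snoRNP assembly factors, 1 was 1.5-fold lower and 1 higher, counts too small to weigh against these shares. Znhit3 read 81 and 50.5 (-0.68), and Pih1d1 was 1.62-fold higher on an x set, with 2 of 4 probe sets below 0.

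Of the 47 measured small subunit factors, 10 were 1.5-fold lower (21.3%, against 9.7% of all measured genes). Ngdn, neuroguidin, read 289 and 141, which is 2.05-fold lower on an x set, and Bysl, bystin, read 208 and 104, 1.99-fold lower. Fcf1, a nuclease-like protein of the processome, read 562 and 297 (1.89-fold lower) and Emg1, a methyltransferase of the small subunit RNA, read 594.5 and 325 (1.83-fold lower). Ddx49, an RNA helicase, was at least 1.85-fold lower, with an Nmyc9a signal of 20.2 below the floor. Utp11 was 1.78-fold lower, Mphosph10 1.75-fold with 1 of 2 probe sets below 0, Imp3 1.63-fold, Utp3 1.57-fold and Dcaf13 1.51-fold. Mphosph10 and Imp3 are partners in a complex that joins the U3 snoRNA. Ngdn, Utp3 and the exosome cofactor C1d, 1.62-fold lower, carry the same Sas10/C1D domain, a grouping made after their values were seen. Higher small subunit genes made up 4.26% of those measured, against 6.33% of all measured genes. They were Utp25 at 1.54-fold and Dimt1, a methyltransferase, at 1.73-fold or more. The wildtype signal of Dimt1 was below the floor, and 1 of its 2 probe sets stood below 0.

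Of the 47 other large subunit factors measured, 5 were 1.5-fold lower (10.6%), near the 9.7% of all measured genes. Rrp15 read 178 and 96.8, 1.84-fold lower, and Ddx56, an RNA helicase, was 1.74-fold lower. Las1l, the endonuclease that cuts the spacer next to the large subunit RNA, read 172 and 103, 1.67-fold lower, with 1 of 2 probe sets below 0. Nol12 was 1.65-fold lower and Rsl1d1 also 1.65-fold. Tma16 read 64.1 and 128 on an x set, the largest higher difference of the list with values under the floor raised to it. The ratio of Dimt1 is only a lower bound, so it cannot be ranked against Tma16. The RNA exosome, the nuclease that trims the precursor, stood near all genes, with a median of -0.05 over 10 measured subunits. Of these, 1 was 1.5-fold higher (10%, against 6.33% of all measured genes), Exosc8 at 1.62-fold, with 1 of 2 probe sets below 0. A count of 1 in 10 is too small to weigh against that share.

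Markers of cell division and of other tissues also differed between the arrays, in both directions. Summed signals of lists, here and below, take in every gene of the list found on the array, measured or not. Of 22 measured proliferation genes, 20 were 1.5-fold lower, against 9.7% of all measured genes, and none higher, against 6.33%. Their median was -0.89, and their summed signal over the list was 8944 and 4798. The lowest was Mcm5, a subunit of the replicative helicase, at -1.80, and the highest was Aurkb at -0.15. The summed signal of the 42 ribosome biogenesis genes was 13104 and 10168, a smaller difference. Mesothelium markers were 1.5-fold lower in 4 of 8 measured, against 9.7% of all measured genes (median -0.56, summed 4200 and 2333). They ranged from Aldh1a2 at -1.26 to Muc16 at 0.34 or higher, with Wt1 below the floor on average.

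Liver markers were 1.5-fold higher in 6 of 8 measured, against 6.33% of all measured genes (summed 483 and 1521). They ranged from Hpx at 0.32 or higher to Alb, serum albumin, which read 139.5 and 558. Of the 6, Apoa1, Ttr, Fga and Fgg lay under the floor on the wildtype array and passed the filter only through the Nmyc9a array, as did Hpx, and 6 other liver markers were not measured. Skeletal muscle markers were 1.5-fold higher in 2 of 5, also against 6.33% (summed 527 and 1051). Values ran from Myod1 at 0.14 to Acta1 at 2.15 or higher, and Acta1 also passed only through the Nmyc9a array. Thymus and lymphocyte markers were 1.5-fold higher in 1 of 4, also against 6.33% (summed 372 and 435). Values ran from Thy1 at -0.27 to Themis at 0.71, with Rag1 signals of 2.3 and 2.44. Erythroid markers were 1.5-fold lower in 1 of 4, against 9.7% of all measured genes (summed 5622 and 4304). Values ran from Slc4a1 at -0.77 to Hbb-y at 0.10. A count of 1 in 4 is too small to weigh against these shares. Lung epithelial markers, summed 31767 and 30358, ranged from Sftpd at -0.83 to Foxj1 at 0.71 (median 0.01), and mesenchymal and endothelial markers, summed 19920 and 18975, from Pdgfra at -0.41 to Cdh5 at 0.24 (median -0.08). The part of these cell types in the ribosome biogenesis values was not tested.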

How the data were processed

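RNA from pooled whole lungs was measured on 2 Affymetrix arrays with biotin label, per the labels. Each array was deposited by the authors as intensity on a linear scale, with 1 signal for each probe set; how the authors summarised and scaled them is not given in the sources used here. Both arrays had a mean deposited intensity of 150 after the lowest and highest 2% were trimmed. Of 45101 probe sets, 64 controls were set aside, 34945 had 1 gene symbol, 932 had several and 9160 had none, from a platform annotation. Symbols were updated through Entrez identifiers (34741 matched) to RefSeq of GRCm38.p6, and 3 list genes were found under older symbols.

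The Nmyc9a array was multiplied by 0.977, so that probe sets whose mean signal reached the floor had a median log2 ratio of 0. Genes were counted by size, 1.5-fold, with 1 array per group and no test. All 42 genes may be named; of other pathway genes, those past 1.5-fold; of marker lists, the highest and lowest measured. Genes and lists were chosen with earlier results of these data known, and complexes after values were seen. Alternatives covered scaling (as deposited, quantile, loess with span 0.3), the floor, the choice of probe sets and the fold (1.25 or 2). Scripts ran on Python 3.11.15 with numpy 2.4.6, pandas 2.3.3 and statsmodels 0.14.6, and were tested on simulated data.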

Additional observations from a re-analysis of the deposited data

Results flagged for a closer look

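Control probe sets for 18S ribosomal RNA lie outside the comparisons above and were flagged because signals of 2 of them were above the wildtype level on the array labelled Nmyc9a. The 5′ set read 90.7 and 122 (log2 ratio 0.43) and the middle set 71.3 and 92.0 (0.37). The third, at the 3′ end, read 93.5 and 76.6 (-0.29). The sets thus differ in sign along the molecule.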

How the results depend on the processing

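No paired analysis was possible because each group holds 1 array. All alternatives kept the group median and each step median below 0. The median of the measured ribosome biogenesis genes was -0.30 after quantile normalization, -0.29 after loess, -0.32 with the floor at the 60th percentile, -0.30 with a pseudocount and, chosen after the data were seen, -0.30 centred on all measured genes. The several-role median was -0.24 after quantile normalization and -0.26 after loess. The other pathway median was -0.29 after quantile normalization, -0.27 and -0.19 with the floor at the 20th or 60th percentile, -0.18 with a pseudocount and -0.14 centred on all measured genes. Ribosome biogenesis genes 1.5-fold lower numbered 10 of 38 after quantile normalization (against 10.9% of all measured genes) and 3 of 38 with a pseudocount (against 5.33% of all), near that share; 1 was higher with the floor at the 20th percentile (against 9.51% of all), with none (against 13.5%) or when centred (against 8.87%). Other pathway genes 1.5-fold higher numbered 1 with a pseudocount (against 3.02% of all) and 2 by the median of probe sets (against 5.84%). At the smaller fold limit tried, 21 ribosome biogenesis genes and 47 other pathway genes were lower (against 27.2% of all measured genes), and 4 and 11 were higher (against 16.0% of all); at 2-fold, 0 ribosome biogenesis genes were lower (against 1.38% of all), and 1 other pathway gene was lower and 1 higher (against 1.29%). Of 368 values of single genes under an alternative, 360 moved by less than the SD between probe sets, 0.40 on the log2 scale. That limit is close in size to the group median of -0.39, so a gene within it may still change sign. Wdr75, for example, went from -0.19 to 0.20 when probe sets named x, s or a were left out. The other 8 values, which moved by more, belong to Nle1, Tcof1, Heatr1, Bms1 and Rrs1. Nle1, with a wildtype signal below the floor, moved only with the floor at the 20th percentile or with no floor. Tcof1, Heatr1, Bms1 and Rrs1 moved only under the choices of probe sets, and their sets differ in sign or size. The moves were not tested. The number of arrays limits the precision.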
